A study of Rattus norvegicus with 16 samples.

Results

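The starting difference between 2 fields of the rat hippocampus was described here: CA1 at T0 (2 arrays) against CA3 at T0 (2 arrays), which are 4 of the 16 arrays of the series. Each CA1 array was set against the CA3 array with the same replicate number in its title, which gave 2 pairs, and all 15866 probe sets other than the manufacturer's controls were compared, standing for 10411 genes. Both groups were total RNA from organotypic hippocampal slice cultures, slices of brain tissue kept alive in a dish, and no genotype, strain, age or treatment is named for either. The series title speaks of oxidative stress over time, with later arrays taken after 30 min, 3 h and 12 h. Neither the agent, its dose nor whether T0 means untreated slices is named in those sources. The replicates are called biological, without a statement that they came from separate animals, so p-values measure only the spread between these samples.

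CA1 and CA3 are neighbouring bands of pyramidal neurons joined by the Schaffer collateral axons that run from CA3 to CA1. CA3 pyramidal cells receive the mossy fibres of the dentate gyrus and excite each other, and CA1 pyramidal cells are known as the more easily killed by ischaemia and oxidative stress. Both fields also hold interneurons, astrocytes, microglia and oligodendrocytes, and slice cultures carry a layer of reactive glia. In such bulk samples, fewer cells of a type and less RNA per cell of that type cannot be told apart.

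The 4 arrays did not sort by field. Across probe sets the 2 CA1 arrays correlated at 0.969 and the 2 CA3 arrays at 0.9545, against 0.971 for the replicate 1 arrays of both fields and 0.988 for the replicate 2 arrays. CA3 replicate 1 stood furthest from the others, and the replicate 1 pair differences had an SD of 0.449 on the log2 scale, against 0.286 for the replicate 2 pair. The 2 sets of differences correlated with each other at only 0.182 (Pearson) and 0.0728 (Spearman) over probe sets, which share their arrays. The signal at the 3' end of the GAPDH control minus that at its 5' end, a measure of how far the labelled RNA reached, was 2.08 and 3.08 in the CA1 arrays (replicates 1 and 2), against 1.93 and 2.62 in the CA3 arrays. For actin it was 4.54 and 5.14 in CA1, against 4.15 and 5.03 in CA3, so in both pairs and for both controls the CA1 array had the larger gap. Its part in the results below was not tested. Because of these array differences, values are given for each array, CA1 before CA3 and replicate 1 before replicate 2.

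No probe set passed the test of the T0 difference. With limma fitted to the 8 CA1 minus CA3 pair differences of all times, 0 of 15866 probe sets (0%) had a Benjamini-Hochberg adjusted p under 0.05, and the smallest adjusted p was 0.119. At an unadjusted p under 0.05 there were 628 (3.96%). Without the pairing the count was also 0, with 115 (0.725%) at an unadjusted p under 0.05. The names and differences that follow are therefore descriptions of 4 arrays.

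By the order of the arrays, both CA1 arrays lay above both CA3 arrays for 2113 probe sets (13.3%) and below both for 1873 (11.8%). When each array was centred on its own median these counts were 2469 and 1431. Counted by gene they were 1402 of 10411 (13.5%) above and 1217 (11.7%) below. With 2 arrays against 2, an exact test of array order cannot give a p under 0.333. Such an order in a single probe set is therefore no evidence of a field difference. For the same reason, the counts over all probe sets do not tell how many differ between the fields. The large differences lay on one side. Both pair differences reached 1 on the log2 scale, which is 2-fold, for 28 probe sets with CA1 below (0.176%) and for 0 with CA1 above (0%). The 28 stood for 22 genes (0.211%) and 6 probe sets without a single gene name. Of those 22 genes, 8 were in lists of neuronal, calcium, peptide or CA2 genes, which hold 103 of the 10411 genes: Stmn2, Stmn3, Nefm, Syn2, Vsnl1, Pcp4, Scg5 and Chgb. The other 14 were in none of these lists. The lists of inhibitory neuron, CA1 and CA3 markers and of receptor and channel genes held none of the 22 and were left out of this count. Every list that did hold any of the 22 was counted, and so was the list of excitatory neuron markers, which held none. The 8 of 22 set against 103 of 10411 is therefore no measure of enrichment in neuronal genes.

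The genes furthest below in CA1 are described first. Stmn2 encodes a stathmin that frees tubulin in growing axons, and it had log2 levels of 6.92 and 5.76 in the CA1 arrays, against 10.18 and 8.28 in the CA3 arrays. Its mean difference was the largest in size of all genes, -2.89 ± 0.47 (moderated SE, 2 pairs), a 7.43-fold lower level in CA1, with an adjusted p of 0.351 in limma. Both CA1 arrays lay below both CA3 arrays. On a second Stmn2 probe set the arrays overlapped, at 5.06 and 4.38 in CA1 against 7.25 and 4.43 in CA3, with the replicate 2 arrays nearly level.

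Vsnl1, a visinin-like calcium sensor of neurons, had log2 levels of 6.15 and 4.84 in CA1, against 9.41 and 7.12 in CA3, a difference of -2.77 ± 0.41 (limma adjusted p = 0.351). On a second Vsnl1 probe set, of low signal, the arrays overlapped, with a difference of -0.48. Scg5, the 7B2 chaperone of a prohormone convertase, read 7.46 and 5.41 in CA1, against 10.03 and 7.85 in CA3, with a difference of -2.50 ± 0.40 (limma adjusted p = 0.351). Elmod1, an ELMO-domain protein that acts on Arf-family GTPases, read 4.28 and 3.12 in CA1, against 6.95 and 5.38 in CA3, a difference of -2.46 ± 0.37 (limma adjusted p = 0.351). In all of these genes the replicate 1 array of a field was above its replicate 2 array, and within Scg5 the spread between replicates of a field was almost as wide as the field difference.

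Pcp4 had the smallest p of the whole comparison. It encodes a small peptide that binds calmodulin and, in the hippocampus, marks CA2 and dentate granule cells. Its log2 level was 7.09 and 6.38 in CA1, against 9.59 and 8.52 in CA3, with pair differences of -2.50 and -2.14. The mean of -2.32 ± 0.26, a 4.98-fold lower level in CA1, had an unadjusted p of 7.47e-06 and an adjusted p of 0.119 in limma. It is the gene whose T0 difference was largest against its error, and the groups were apart by more than the spread within either of them.

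Cyp1b1, a cytochrome P450 that oxidises steroids and foreign compounds, is not a gene of neurons in particular. It read 7.77 and 7.32 in CA1, against 10.39 and 8.93 in CA3, a difference of -2.11 ± 0.36 (limma adjusted p = 0.351). Slc12a5, the potassium-chloride cotransporter that sets neuronal chloride, read 5.98 and 5.96 in CA1, against 8.03 and 6.87 in CA3. Syn2, a synapsin of the vesicle surface, read 4.26 and 4.07 in CA1, against 7.70 and 5.19 in CA3. For both, the CA1 arrays were close together and CA3 replicate 1 was far above the other CA3 array. On a second Syn2 probe set the arrays overlapped, with a difference of -0.21 (-0.63 and 0.22 in the pairs).

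The other genes named by the same rule on this side were Hspa12a, a distant member of the Hsp70 family (-1.46), Rprml, a relative of Reprimo (-1.81), Gprin1, which promotes neurite outgrowth downstream of G proteins (-1.57), Atp2b3, a plasma membrane calcium pump (-1.21), and Ttll7, a ligase that adds glutamates to tubulin (-1.91). The other Atp2b3 probe sets, of low signal, had overlapping arrays, at -0.16 and -0.0009. Over the 13 named genes below in CA1, the median difference was -2.11 and adjusted p ran from 0.119 to 0.898. In 13 of 13, the replicate 1 pair had the larger difference and replicate 1 lay above replicate 2 in both fields.

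The genes named above in CA1 differed by less. Grm3, a metabotropic glutamate receptor that astrocytes also carry, had log2 levels of 6.74 and 6.13 in CA1, against 5.53 and 5.30 in CA3, a difference of 1.02 ± 0.26 (limma adjusted p = 0.898). Nes, the nestin filament of progenitors and reactive astrocytes, read 8.71 and 8.70 in CA1, against 7.49 and 8.10 in CA3, a difference of 0.91 ± 0.24 (limma adjusted p = 0.898). Metrn, meteorin, a protein secreted by astrocytes and progenitors, read 8.47 and 7.65 in CA1, against 7.14 and 7.08 in CA3. Neither field overlapped the other in these genes, and the CA3 arrays were the lower ones in both pairs.

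Pimreg, a regulator of mitosis, read 7.46 and 7.28 in CA1, against 6.78 and 6.16 in CA3, a difference of 0.91 ± 0.21 (limma adjusted p = 0.88). Kdelr3, which returns escaped chaperones to the endoplasmic reticulum, read 7.61 and 7.39 in CA1, against 5.72 and 6.86 in CA3. Smaller differences on this side were those of Tmed1, a p24 cargo protein of early secretory vesicles (0.84), Entpd5, a nucleotidase of the endoplasmic reticulum (0.76), Pfdn1, a prefoldin subunit (0.81), Ryk, a Wnt receptor (0.66), Zfyve26, the spastizin protein (0.69), Rom1, a tetraspanin known from photoreceptor discs (0.83), and Cmss1 (0.88).

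The largest mean differences above 0 rested on the replicate 1 pair. Lcn2, a lipocalin that binds iron carriers and is made by reactive astrocytes, read 11.75 and 9.79 in CA1, against 8.44 and 9.27 in CA3, with pair differences of 3.31 and 0.52. Cp, the ferroxidase ceruloplasmin, had pair differences of 2.24 and 0.20, Lrig1, a brake on growth factor receptors, 2.22 and 0.11, and Tcim 2.62 and 0.03. Plpp3, a lipid phosphate phosphatase, had 1.91 and 0.66. The adjusted p of each of these was 1 in limma. Over the 17 named genes above in CA1, the median difference was 0.91, less than that of the 13 below in size.

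**Figure D1:**
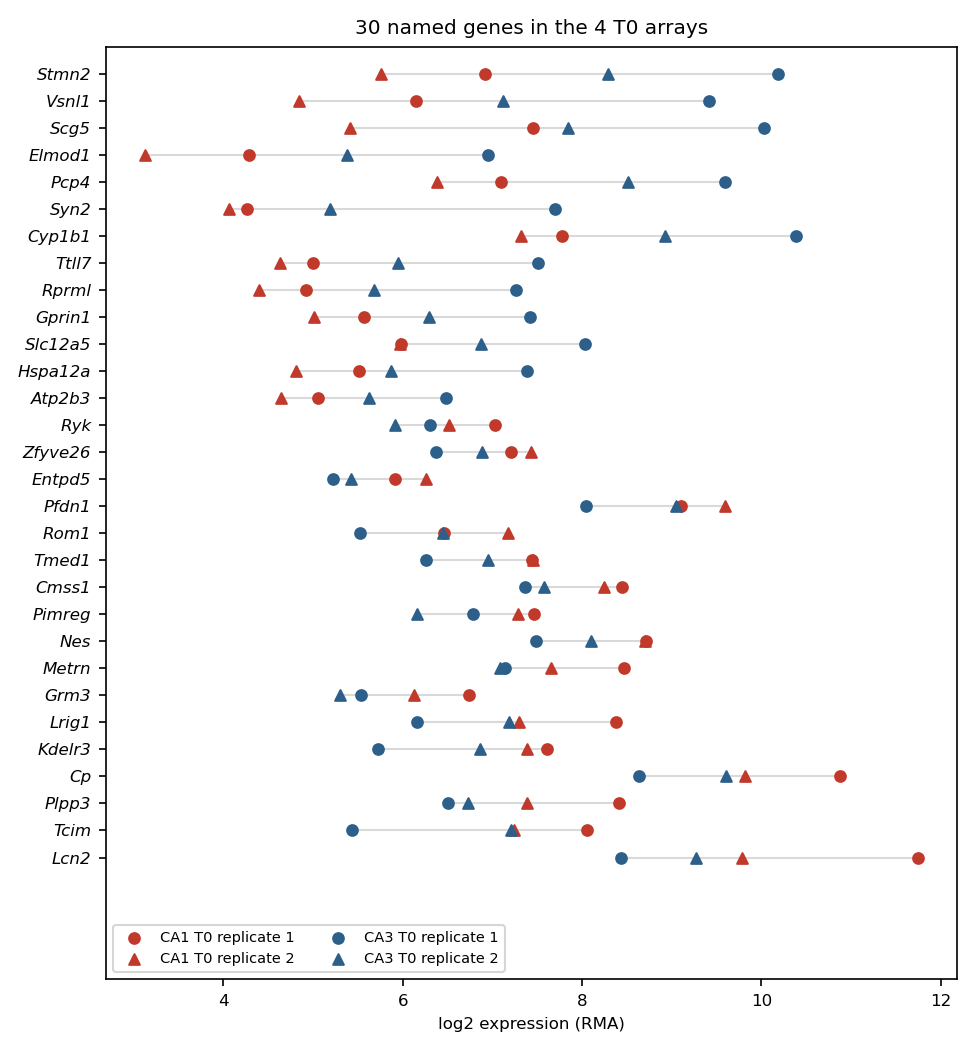
Log2 expression (x axis) of the 30 genes chosen by rank in the 4 T0 arrays, ordered by mean difference from most below in CA1 (top) to most above (bottom). Red marks CA1 and blue CA3, circles replicate 1 and triangles replicate 2; in the 13 upper genes both red points lie left of both blue points and CA3 replicate 1 is the highest array.

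Promoter windows of 2 genes below in CA1 and of 2 cell cycle genes are shown so that these groups can be compared in sequence. They come from RefSeq on GRCr8, run from 250 bases before to 50 after the annotated start, and are written 5' to 3' on the gene's strand. Capitals mark matches to 3 motifs on either strand, none of which overlap in these windows. One is the CCAAT box. Another is the cell cycle homology region, searched as TTTGAA. The last is the GC box, for which the search string was GGGCGG. Pcp4 lies at chr11:49269936-49270235 (plus strand), Vsnl1 at chr6:39878507-39878806 (minus), Top2a at chr10:84473044-84473343 (minus) and Spc25 at chr3:74396669-74396968 (minus). Top2a and Spc25, a topoisomerase and a kinetochore protein, were chosen after their values were seen.
Pcp4: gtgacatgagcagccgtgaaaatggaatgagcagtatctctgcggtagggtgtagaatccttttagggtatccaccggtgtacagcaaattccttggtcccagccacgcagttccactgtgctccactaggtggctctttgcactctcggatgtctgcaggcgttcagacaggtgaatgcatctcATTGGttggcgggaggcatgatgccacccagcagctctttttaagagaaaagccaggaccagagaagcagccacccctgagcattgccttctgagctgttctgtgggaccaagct
Vsnl1: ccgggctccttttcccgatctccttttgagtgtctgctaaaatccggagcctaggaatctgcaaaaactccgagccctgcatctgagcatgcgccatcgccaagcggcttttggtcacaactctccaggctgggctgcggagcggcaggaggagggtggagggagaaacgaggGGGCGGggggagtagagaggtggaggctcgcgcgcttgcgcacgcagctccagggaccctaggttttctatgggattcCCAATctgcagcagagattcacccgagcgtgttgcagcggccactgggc
Top2a: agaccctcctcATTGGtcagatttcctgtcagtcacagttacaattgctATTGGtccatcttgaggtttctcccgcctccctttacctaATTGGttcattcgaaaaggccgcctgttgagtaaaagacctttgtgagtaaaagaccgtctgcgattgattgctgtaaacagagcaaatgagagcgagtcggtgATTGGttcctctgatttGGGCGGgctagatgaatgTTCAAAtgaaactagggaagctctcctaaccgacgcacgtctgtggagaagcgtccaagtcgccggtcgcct
Spc25: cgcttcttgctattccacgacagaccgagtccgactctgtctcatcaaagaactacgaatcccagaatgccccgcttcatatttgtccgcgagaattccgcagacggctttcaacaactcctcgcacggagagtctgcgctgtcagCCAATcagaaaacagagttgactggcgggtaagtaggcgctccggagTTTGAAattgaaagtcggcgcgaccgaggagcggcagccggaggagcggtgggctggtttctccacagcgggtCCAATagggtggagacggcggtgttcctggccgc
The Pcp4 window holds 1 CCAAT box and no other of the 3, and that of Vsnl1 1 CCAAT box and 1 GC box. Top2a has 4 CCAAT boxes, 1 homology region and 1 GC box, and Spc25 has 2 CCAAT boxes and 1 homology region. CCAAT was found in 16 of 22 windows of the cell cycle list (72.7%) and in 37.5% of all 33469 windows. The homology region was found in 12 of 22 (54.5%) and in 18.3% of all. Of the 10 windows of cell cycle genes with both CA1 arrays above, 7 held the CCAAT box (70%) and 3 the homology region (30%). Among the 14 windows of the neuronal cytoskeleton list, the CCAAT box was found in 2 (14.3%) and the homology region in 2 (14.3%), and among the 19 of the synaptic vesicle list in 7 (36.8%) and 3 (15.8%). The GC box was found in 72.7% of cell cycle, 64.3% of neuronal cytoskeleton and 89.5% of synaptic vesicle windows, and in 33.1% of all. The lists were searched with 1 window per gene, while the 33469 windows were neither reduced in this way nor limited to measured genes. The shares are therefore of unlike sets. These matches describe letters only.

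The gene lists follow, by role, and each count by array order is to be read against 13.5% of all genes above and 11.7% below. Over all 10411 genes, 4851 had a mean difference below 0 and 5560 above. Of 24 measured neuronal cytoskeleton and growth genes, 24 had a mean difference below 0. Both CA1 arrays lay below both CA3 arrays in 13 of these genes (54.2%), and 0 lay above. Their median difference was -0.87, against 0.01 over all genes, but the pairs were unequal: -1.11 for replicate 1 and -0.29 for replicate 2. Stmn3, a stathmin, read 7.64 and 6.44 in CA1, against 10.28 and 8.06 in CA3. Nefm, the medium neurofilament, read 5.05 and 5.58 in CA1, against 7.54 and 7.19 in CA3, with the 2 arrays of each field close together. Nefl, the light neurofilament, had a difference of -1.67 with overlapping arrays. General markers such as Tubb3 (-0.25), Map2 (-0.20) and Dpysl2 (-0.14) differed little.

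Synaptic vesicle genes had a median difference of -0.57 (-0.93 and -0.25 in the 2 pairs), with 8 of 20 (40%) below by array order and 0 above. Snap25, a SNARE of vesicle fusion, read 7.40 and 5.28 in CA1, against 10.57 and 7.04 in CA3, a difference of -2.47 in which CA1 replicate 1 lay above CA3 replicate 2. Cplx1, a complexin, read 5.98 and 5.83 in CA1, against 9.17 and 6.11 in CA3, so its difference came almost wholly from CA3 replicate 1. On a second Cplx1 probe set, of low signal, the arrays overlapped, with a difference of -0.11. Syn1 (-0.04) and Unc13a (0.01), which also serve release, were near 0.

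Among excitatory neuron markers, 6 of 9 (66.7%) were below by array order and 0 above, with a median of -0.80 (-0.99 and -0.43 in the 2 pairs). Slc17a7, the vesicular glutamate transporter of these cells, read 5.99 and 5.73 in CA1, against 8.54 and 6.04 in CA3. On a second Slc17a7 probe set the arrays overlapped, with a difference of -0.41. Baiap2, Nrgn and Camk2b, all of the postsynaptic side, had differences of -1.25, -1.20 and -1.18. A second Camk2b probe set had overlapping arrays, with pair differences of -1.22 and 0.07. Other Baiap2 probe sets were at -0.74, with both CA1 arrays below both CA3 arrays, and at 0.09, with overlapping arrays. Inhibitory neuron markers had a median of 0.03, with 1 of 12 above (8.33%) and 2 below (16.7%). Gad1, which makes GABA, read 7.64 and 9.06 in CA1, against 7.62 and 9.09 in CA3. Its level thus differed between replicates by far more than between fields. Averaged over the 9 excitatory markers, the log2 level was 6.18 and 6.28 in CA1, against 7.39 and 6.57 in CA3, while for the 12 inhibitory markers it was 6.38 and 6.41 in CA1, against 6.47 and 6.47 in CA3. Whether excitatory and inhibitory markers differed from each other was not tested.

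**Figure D2:**
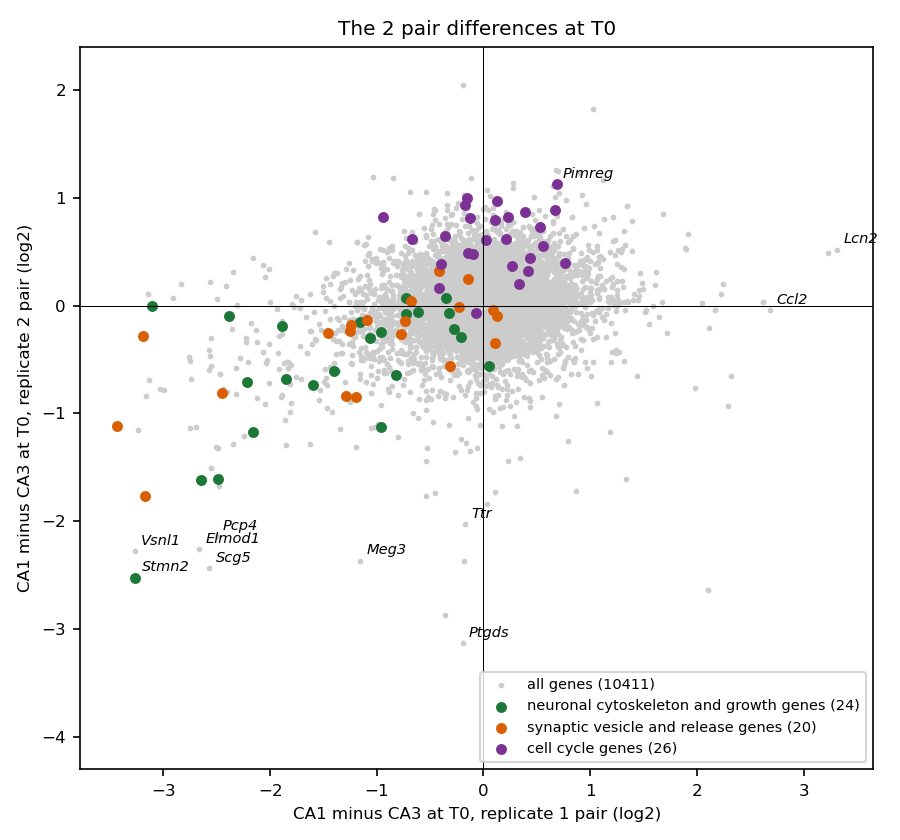
CA1 minus CA3 at T0 in the replicate 1 pair (x axis, log2) and in the replicate 2 pair (y axis, log2), for all 10411 genes in grey and 3 gene lists in colour. Stmn2, Vsnl1, Scg5, Pcp4 and Elmod1 lie beyond -2 on both axes, several neuronal genes lie far left with a y value near 0, and cell cycle genes lie mostly above 0 on the y axis.

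Calcium handling genes lay mostly on the CA3 side. Of 24 measured members, 12 were below by array order (50%) and 2 above (8.33%), with a median of -0.30 (-0.51 and -0.12 in the 2 pairs). Besides Vsnl1 and Pcp4, the calcineurin subunits Ppp3cb (-0.67) and Ppp3ca (-0.59) and the pump Atp2b2 (-0.77) were among those below. Calb1, the calbindin buffer of CA1 and dentate granule cells, read 11.14 and 8.45 in CA1, against 9.80 and 7.52 in CA3, with overlapping arrays and a difference of 1.13. Chgb, a granin of dense core vesicles, read 5.69 and 4.81 in CA1, against 8.16 and 6.49 in CA3, while the peptide and granin list as a whole had a median of -0.19, with 4 of 19 below (21.1%) and 2 above (10.5%).

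Receptor and channel genes showed fewer large differences. For AMPA and kainate receptor subunits, 4 of 9 were below (44.4%) and 0 above. Gria1 read 4.13 and 3.65 in CA1, against 4.93 and 4.48 in CA3, with 2 nearly equal pair differences of -0.80 and -0.83. Grik2 read 4.77 and 4.44 in CA1, against 5.34 and 5.17 in CA3. All of these Gria1 and Grik2 levels lay under the medians of the T0 arrays, the lowest of which was 5.82. For NMDA and metabotropic receptors the counts were 2 above and 2 below of 14 (14.3% each), and Grin1, the obligatory NMDA subunit, had a difference of -0.51 with overlapping arrays. GABA receptor subunits had 5 of 12 below (41.7%) and 1 above (8.33%). Gabra5, the subunit of extrasynaptic GABA-A receptors that is abundant in the hippocampus, read 4.63 and 4.35 in CA1, against 7.79 and 5.18 in CA3. Gabrb2 read 3.83 and 3.84 in CA1, against 6.31 and 4.48 in CA3, and in both genes the CA1 arrays were alike while the CA3 arrays were far apart. On a second Gabrb2 probe set the arrays overlapped, with a difference of -0.08 (-0.17 and 0.01 in the pairs).

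Of the calcium and sodium channel genes 9 of 22 were below (40.9%) and 1 above (4.55%), with a median of -0.19. Of the potassium channel genes 8 of 30 were below (26.7%) and 4 above (13.3%), with a median of -0.06. Cacna2d3, an auxiliary calcium channel subunit, had pair differences of -2.57 and -0.47. Kcnd2, the A-type channel of dendrites, read 4.70 and 4.68 in CA1, against 5.95 and 5.58 in CA3. On a second Kcnd2 probe set, of low signal, both CA1 arrays also lay below both CA3 arrays, with a difference of -0.45.

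The field markers did not set the T0 arrays apart by their labels. Of 9 CA1 pyramidal markers, 2 lay above by array order (22.2%) and 4 below (44.4%), with a median of -0.07. Wfs1, the wolframin protein of the endoplasmic reticulum and a standard CA1 marker, read 6.20 and 6.02 in CA1, against 5.97 and 6.0 in CA3. Fibcd1 read 4.72 and 4.78 in CA1, against 4.66 and 4.61 in CA3, and Pou3f1, a POU transcription factor, 3.47 and 3.49 in CA1, against 3.53 and 3.63 in CA3. These differences were small, and the levels of the last pair lay under the array medians, which ran from 5.814 to 5.941 over the series. Mpped1, another CA1 marker, was on the other side: it read 4.35 and 4.50 in CA1, against 5.34 and 5.6 in CA3, a difference of -1.05 ± 0.69 (limma adjusted p = 1).

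At later times the CA1 markers had other values. The median difference of the list was 0.43 and 0.49 in the pairs at 30 min, -0.52 and 0.48 at 3 h, and 1.69 and 1.05 at 12 h. For Mpped1 the mean later difference was 1.71 ± 0.40, and T0 minus later was -2.76 ± 0.80 (limma unadjusted p = 0.0071, adjusted p = 1). For Pou3f1 the mean later difference was 0.96 ± 0.18, and T0 minus later was -1.05 ± 0.36 (limma adjusted p = 1). The labels of the T0 arrays were used as given.

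CA3 markers leaned to CA3 in 1 pair. Of 7 measured members, 2 were below in CA1 by array order (28.6%) and 0 above, with medians of -0.79 and -0.10 in the 2 pairs. Nptx1, a pentraxin of excitatory synapses, read 7.23 and 6.35 in CA1, against 10.22 and 7.13 in CA3. Grik4, the kainate receptor subunit of mossy fibre synapses, read 5.5 and 5.33 in CA1, against 6.29 and 5.27 in CA3, so CA3 replicate 2 was the lowest of the 4. Without the replicate 1 pair its difference was 0.05. Among 9 CA2 markers, 3 were below (33.3%) and 0 above. Apart from Pcp4 these included Necab2, a neuronal calcium-binding protein, which read 5.48 and 5.39 in CA1, against 6.09 and 5.73 in CA3. Prox1, the transcription factor of dentate granule cells, read 5.62 and 6.17 in CA1, against 5.79 and 5.94 in CA3, with no order between the fields.

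**Figure D3:**
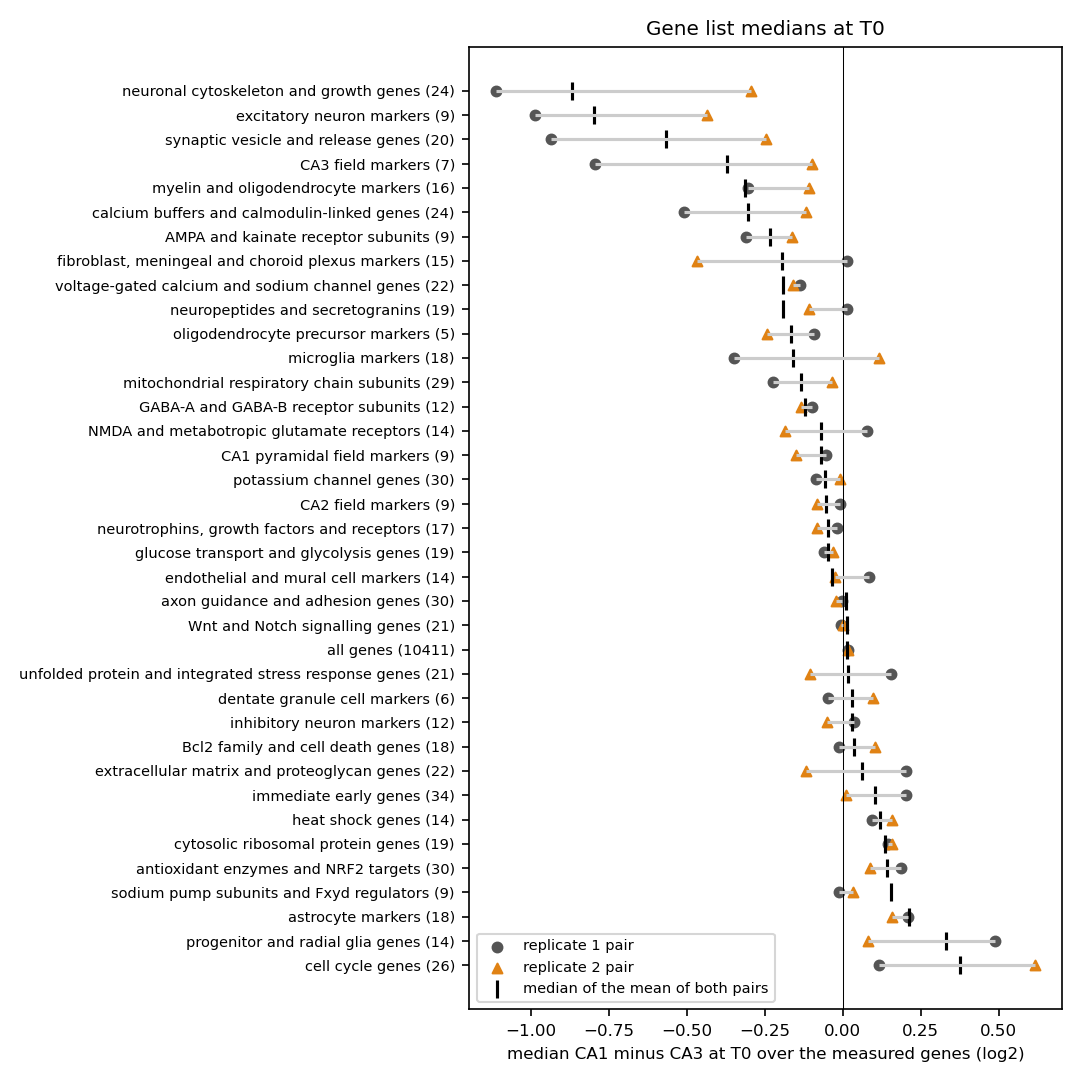
Median CA1 minus CA3 at T0 (x axis, log2) over the measured genes of 36 lists and of all genes, with the number of genes in brackets, for the replicate 1 pair (circles), the replicate 2 pair (triangles) and the mean of both (bars). Neuronal cytoskeleton genes are furthest left at -0.87 and cell cycle genes furthest right at 0.37.

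Cell cycle genes lay on the CA1 side, and here the replicate 2 pair had the larger differences. Of 26 measured members, 12 were above by array order (46.2%) and 1 was below (3.85%), with a median of 0.37 (0.12 in replicate 1 and 0.62 in replicate 2). Kif15, a spindle kinesin, read 7.26 and 7.96 in CA1, against 6.59 and 7.07 in CA3. Kif20a, a kinesin of cytokinesis, read 7.49 and 7.44 in CA1, against 6.97 and 6.71 in CA3. Mki67, the proliferation antigen, read 7.44 and 8.40 in CA1, against 7.06 and 7.53 in CA3, where CA1 replicate 1 lay just under CA3 replicate 2.

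Top2a read 8.46 and 8.89 in CA1, against 8.34 and 7.92 in CA3, and Spc25 8.36 and 8.34 in CA1, against 8.14 and 7.51 in CA3. A second Top2a probe set of low signal had a difference of -0.02. The replication helicase subunits Mcm3, Mcm5 and Mcm6 were above at 0.32, 0.27 and 0.45, while the mitotic genes Plk1, Ccnb1 and Cdc20 lay at -0.13, -0.03 and 0.00. Which cells carried these transcripts cannot be read from bulk RNA.

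Progenitor genes had 4 of 14 above (28.6%) and 0 below, with a median of 0.33 (0.49 and 0.08 in the pairs). Besides Nes these included Vim (0.36), Sox2 (0.30) and Lgals1, a galectin of reactive glia, which read 10.52 and 9.30 in CA1, against 8.85 and 9.26 in CA3. Cd44, the hyaluronan receptor, had pair differences of 1.25 and 0.10 with overlapping arrays. Astrocyte markers had 2 of 18 above (11.1%) and 1 below (5.56%), neither share above that of all genes, with a median of 0.21. Slc4a4, a bicarbonate transporter, read 8.76 and 8.08 in CA1, against 7.64 and 7.27 in CA3, and Gfap, the astrocyte filament, read 13.01 and 12.32 in CA1, against 12.93 and 12.04 in CA3. Averaged over the 18 markers, the astrocyte log2 level was 8.91 and 8.26 in CA1, against 8.63 and 8.15 in CA3. In each pair the CA1 array was the higher one in this mean and the lower one in the mean of the excitatory markers, and the astrocyte mean of replicate 1 was above that of replicate 2 in both fields. The part of this in the neuronal differences was not tested.

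**Figure D4:**
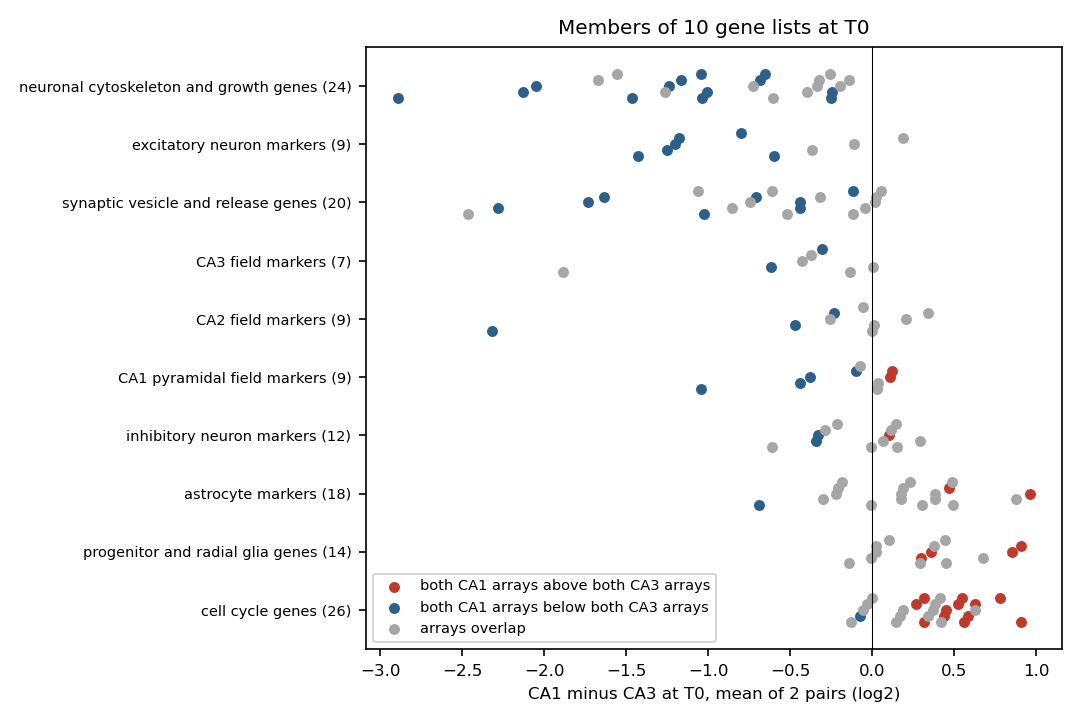
CA1 minus CA3 at T0 (x axis, log2, mean of 2 pairs) for each measured member of 10 lists, 1 point a gene, with height within a row only separating points. Blue points have both CA1 arrays below both CA3 arrays, red points both above, and grey points overlap. All 24 neuronal cytoskeleton genes lie left of 0 (against 4851 of all 10411 genes, not drawn), and 12 of 26 cell cycle genes are red.

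Myelin and oligodendrocyte markers had 4 of 16 below (25%) and 1 above (6.25%), with a median of -0.31. Mbp, the main protein of myelin, read 10.48 and 9.27 in CA1, against 11.34 and 9.87 in CA3, a difference of -0.73 ± 0.30 (limma adjusted p = 1), and its second probe set gave 0.10. Mag, an adhesion protein of the innermost myelin membrane, read 6.34 and 6.83 in CA1, against 7.08 and 6.89 in CA3, a difference of -0.40 ± 0.22 (limma adjusted p = 1). Averaged over the later times, both were lower in CA1 and passed the test: Mbp at -1.25 ± 0.17 (limma adjusted p = 0.0439) and Mag at -1.38 ± 0.12 (limma adjusted p = 0.0202), among 18 probe sets that passed there (0.113%). The second Mbp probe set was at -0.79 over the later times and did not pass (limma adjusted p = 0.176). For Mag, T0 minus later was 0.98 ± 0.25 (limma adjusted p = 1), so a smaller difference at T0 was not shown.

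Microglia markers had 0 of 18 above and 1 below (5.56%). Aif1, the Iba1 protein, read 6.79 and 7.63 in CA1, against 7.55 and 7.53 in CA3, and without the replicate 1 pair its difference was 0.10. Cd93, a receptor of phagocytes and endothelium, read 7.75 and 8.69 in CA1, against 6.07 and 7.84 in CA3, while its second probe set, of low signal, was at -0.01. Of the antioxidant genes 3 of 30 were above (10%) and 1 below (3.33%). Prdx6, a peroxiredoxin, read 7.06 and 6.82 in CA1, against 6.53 and 6.46 in CA3, and Sod3, the extracellular superoxide dismutase, 6.96 and 6.05 in CA1, against 6.48 and 5.35 in CA3. The 34 immediate early genes had 2 above (5.88%) and 4 below (11.8%), and the 21 genes of the unfolded protein response 1 above and 1 below (4.76% each).

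Cytosolic ribosomal protein genes were shifted by little but evenly. Of 19, 17 had a mean difference above 0, against 5560 of all 10411 genes. By array order 5 were above (26.3%) and 0 below, and the pair medians were 0.14 and 0.16. Fzd2, a Wnt receptor, was the leading gene of the Wnt and Notch list. It read 7.52 and 6.54 in CA1, against 6.23 and 6.04 in CA3, a difference of 0.89 ± 0.27 (limma adjusted p = 0.944), and its mean later difference was 0.95 (limma adjusted p = 0.0859), above 0 in 6 of 6 pairs. The list as a whole had 3 of 21 above and 3 below (14.3% each).

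Single CA3 arrays carried some of the widest differences. CA3 replicate 2 alone was high in 3 probe sets that the annotation assigns to 2 genes each. One of them read 3.45 and 4.21 in CA1, against 3.87 and 8.23 in CA3, and the other two had replicate 2 differences of -3.61 and -3.58. Ptgds, the prostaglandin D synthase of meninges and choroid plexus, read 3.91 and 3.81 in CA1, against 4.10 and 6.94 in CA3. Ttr, the transthyretin of choroid plexus, read 5.0 and 4.8 in CA1, against 5.17 and 6.83 in CA3. With the replicate 1 pair left out, the 3 probe sets and Ptgds passed the limma test at T0 (Ptgds adjusted p = 0.0257), a result that then rests on 1 pair. Over the 15 fibroblast, meningeal and choroid plexus markers, the mean log2 level was 5.89 and 6.23 in CA1, against 5.92 and 6.98 in CA3, with 4 below by array order (26.7%) and 0 above. The part of this in other results was not tested.

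CA3 replicate 1 stood apart in another way. Chosen after their values were seen, the chemokine genes Ccl2 and Cxcl1 and the adhesion molecule Vcam1 were low there only. Ccl2 read 10.40 and 10.10 in CA1, against 7.72 and 10.14 in CA3. Cxcl1 read 7.74 and 8.26 in CA1, against 5.42 and 8.92 in CA3, and Vcam1 9.57 and 10.18 in CA1, against 7.52 and 10.16 in CA3. The same array was the highest of the 4 for Stmn2, Vsnl1, Snap25, Syn2, Nptx1 and Slc17a7. Of 13 named genes below in CA1, all had a replicate 2 difference below 0 as well, which does not use that array, but this was part of how they were chosen.

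A further 3 genes of the strict count, also chosen after their values were seen, had a known neuronal role or a pattern of their own. Thy1, a surface glycoprotein of projection neurons, read 5.73 and 4.78 in CA1, against 8.28 and 6.29 in CA3. Cadps, which primes dense core vesicles, read 4.85 and 5.09 in CA1, against 7.60 and 6.23 in CA3. Meg3, an imprinted long noncoding RNA, read 5.81 and 5.81 in CA1, against 6.96 and 8.18 in CA3. Its larger difference was in the replicate 2 pair, whereas 19 of the 22 genes of that count had theirs in the replicate 1 pair. Second probe sets of Thy1 and Meg3 had overlapping arrays, with differences of -0.28 and -0.41.

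The later arrays gave the field difference of these genes in other samples. Their differences did not rank the genes, but their spread entered the errors and p-values that did, and their levels helped to choose the probe sets. Of the 13 genes named as below in CA1 at T0, 9 had a mean later difference below 0, with a median of -0.19, and 1 passed. That gene was Pcp4, at -1.28 ± 0.15 (limma adjusted p = 0.0239), with a mean of -1.29 for the 30 min pairs, -1.24 for the 3 h pairs and -1.32 for the 12 h pairs, and a value below 0 in 6 of 6 pairs. Without the pairing, 0 of them passed. Vsnl1 had means of 0.22, -1.88 and -1.31 at the 3 later times and Cyp1b1 -0.56, -1.53 and -1.18. Stmn2 had 0.93, -0.99 and -0.50, and Scg5 1.02, -0.44 and -0.30. For Vsnl1, Stmn2, Scg5 and Cyp1b1, the 30 min pair of replicate 1 lay above 0.

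Of the 17 genes named as above in CA1, 14 had a mean later difference above 0, with a median of 0.41, and 0 passed. All 6 later pairs were above 0 in 7 of them, among them Grm3 (mean later difference 0.61), Nes (0.41), Metrn (0.40) and Lcn2 (1.19). Pimreg was at -0.08 and Cmss1 at -0.08. Across genes, the T0 difference and the mean later difference correlated at 0.414 (Pearson) and 0.318 (Spearman) over 10411 genes, which are not independent replicates. Over probe sets, the replicate 1 differences at T0 correlated with those of single later pairs at -0.049 to 0.331. For the replicate 2 differences at T0 the range was -0.0684 to 0.229. The difference at T0 against the later mean was tested over all probe sets, and 0 of 15866 passed (0%), with 344 (2.17%) at an unadjusted p under 0.05.

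**Figure D5:**
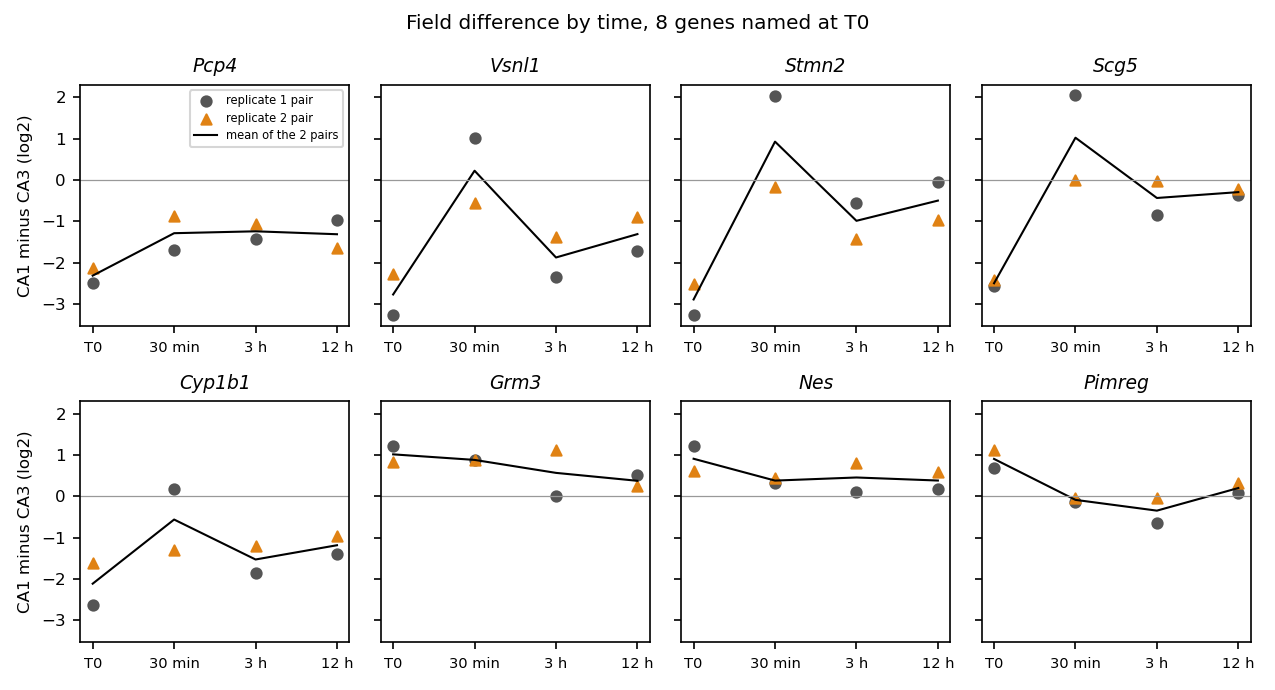
CA1 minus CA3 (y axis, log2) at T0, 30 min, 3 h and 12 h for 8 genes named at T0, with circles for replicate 1 pairs, triangles for replicate 2 pairs and a line through their means. Pcp4 lies between -2.50 and -0.88 in every pair, while Stmn2 and Scg5 lie between -3.26 and -2.43 at T0 and between -1.43 and 2.04 later.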

How the data were processed

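The authors deposited log2 values computed with RMA, as the submitters' processing notes state. RMA corrects background, equalises the arrays' signal distributions and summarises probes. No version or settings are named there. Equalised distributions hide any change in total mRNA, and the number of arrays limits the precision. Per the labels' protocols, total RNA was amplified over 2 labelling cycles.

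Of 15923 probe sets, 57 controls were left out. The platform annotation gave 1 gene for 12783, several for 312 and none for 2771. Each of 10411 genes was represented by its probe set of highest mean. The 8 CA1 minus CA3 differences were fitted in limma 3.58.1 (R 4.3.3) with 4 time means, leaving 4 residual degrees of freedom and a prior worth 5.17. This shares the spread over times, since T0 alone has 2 pairs. P-values were adjusted by Benjamini and Hochberg's method across the 15866 probe sets, errors are moderated standard errors, and the threshold was 0.05. Pairing follows the replicate numbers: deviations from group means correlated between the fields at 0.568 to 0.668 at the 4 times. What a number stands for is not stated.

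Named genes are, among those with a log2 level of at least 6 in 1 field at T0 and fields that do not overlap, the 12 of smallest p and the 6 of largest difference in each direction. The 4 largest of each list and a fixed set of markers were added without these 2 conditions. List members outside this rule that are given only by their difference were picked after their values were seen. The members and the 36 lists (611 of 737 genes measured) were chosen with earlier results of these data known. The fit was tested on simulated data. Alternatives were another normalization, median centring, a level minimum, no pairing, T0 pairs alone, a variance trend, other probe sets and each replicate left out.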

Additional observations from a re-analysis of the deposited data

Results flagged for a closer look

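Of the genes ranked at T0, 6 had both T0 pair differences on one side of 0 and both pair differences of a later time on the other. The T0 minus later difference was not tested at single times, so these are values only. Elmod1, -2.46 at T0, was at 0.46 at 30 min (pairs 0.81 and 0.11). Rprml, -1.81 at T0, was at 1.38 at 12 h (pairs 1.5 and 1.26). Slc12a5, -1.48 at T0, was at 0.37 at 12 h. Cmss1, 0.88 at T0, was at -0.23 at 30 min. Pimreg, 0.91 at T0, was at -0.085 at 30 min and -0.35 at 3 h. Entpd5, 0.76 at T0, was at -0.25 at 30 min. Genes were ranked by their T0 values, which favours large T0 differences in these lists.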

How the results depend on the processing

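At T0 the count of passing probe sets was 0 with no replicate block, with the 2 T0 pairs alone, after cyclic loess, with arrays centred on their medians and at a mean level of at least 6. With a replicate left out it was 0 to 4, the 4 coming without replicate 1. For T0 minus the later times it was 0 in the same alternatives and with a variance trend (T0 pairs alone not run), and 0 to 3 with a replicate left out. Of the genes ranked at T0 by p or size, without the added markers and list members, 1 passed at the later times. With no replicate block, a fit added after seeing the data, it was 0. Strict counts with 1 pair left out were 28 to 203 above and 87 to 426 below, since only 1 difference then had to reach the limit. At a mean level of at least 6, fewer probe sets were counted by array order, 945 above and 868 below. Without replicate 1 and without replicate 2, the CA1 marker median was -0.15 and -0.054, and the myelin median -0.11 and -0.305. Differences that changed sign without a replicate ran, again without replicate 1 and without replicate 2, at 0.054 and -0.794 for Grik4, 0.097 and -0.752 for Aif1, -0.031 and 0.016 for Gad1, 0.228 and -0.173 for Prox1, -0.040 and 2.68 for Ccl2, and -0.652 and 2.32 for Cxcl1. Other probe sets had the opposite sign for Baiap2 (0.093), Mbp (0.096), Cd93 (-0.013), Gad1 (0.032) and Top2a (-0.022), and Gad1 was at 0.018 with centred arrays. The causes were not tested.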
